A study of Mus musculus with 20 samples.

Results

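The genes of the interleukin-4 (IL-4) and interleukin-13 (IL-13) receptor system were followed in the mouse uterus on day 3.5 of pregnancy. Of the 45777 genes measured, 7 make up this system: the ligands Il4 and Il13, the receptor chains Il4ra, Il13ra1, Il13ra2 and Il2rg, and the transcription factor Stat6. They were found by gene symbol, and the system was selected on measured values, namely the low Il13ra2 level of the RU486-treated mice in these same samples. Comparisons with control mice are therefore given as description, with folds and errors but no test. Of the 7 genes, 5 were above 0 in all 20 mice and could be tested across the whole table; Il4 was above 0 in 19 mice and Il13 in none.

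IL-4 and IL-13 are the cytokines of type 2 immunity and share a receptor chain, IL-4 receptor alpha (Il4ra). With the common gamma chain (Il2rg) this chain forms the type I receptor, which binds IL-4, and with IL-13 receptor alpha 1 (Il13ra1) it forms the type II receptor, which binds both cytokines. Both receptors act through JAK kinases and STAT6. IL-13 receptor alpha 2 (Il13ra2) binds IL-13 tightly, has only a short cytoplasmic tail, and is known chiefly as a decoy that withholds IL-13 from the type II receptor.

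All mice were wild-type B6D2F1 females of 8 to 12 weeks that had been mated, and each library was made from 1 uterine horn collected at 18:00 on day 3.5, with 5 mice per group. The control group received no agent. The IF (implantation failure) group received RU486 (mifepristone, an antagonist of the progesterone and glucocorticoid receptors) under the skin on the morning of day 3.5. The PBMC group received the same RU486 after peripheral blood mononuclear cells of non-pregnant mice, cultured without hCG, had been placed in the uterus on day 1.5, and the PBMC-hCG group differed from it in that the cells had been cultured with human chorionic gonadotropin (hCG). The control and IF mice had no injection into the uterus, so the cells and the injection cannot be told apart in comparisons with them; mice given medium alone were not analysed here. Values are TPM, a share of each library's transcripts that is scaled for gene length. Control replicate 2 stood apart from its group, with a mean correlation of 0.963 with the other control libraries against 0.977 to 0.989 for all other libraries within their groups, and a ribosomal RNA entry (Rn18s-rs5) as its most abundant gene, as also in control replicate 5 and IF replicate 2. Log2 fold changes without it are given for Il13ra2, Il13ra1 and Il4ra against control, and marker sums include it.

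The genes lie on 4 chromosomes of the GRCm38 (mm10) assembly. Il13ra2 spans 147383478 to 147429192 on the minus strand of chromosome X, with 14 exons in its principal transcript, and Il13ra1 spans 36112108 to 36171262 on the plus strand of the same chromosome. Il2rg is also on chromosome X (101264385 to 101268255, minus strand). Il4ra is on chromosome 7 (125552271 to 125579474, plus strand) and Stat6 on chromosome 10 (127642955 to 127660987, plus strand). The ligands are neighbours on chromosome 11, with Il4 at 53612460 to 53618665 and Il13 at 53631323 to 53634702, both on the minus strand.

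The promoters of Il13ra2 and Il4ra are shown because these are the receptor chains with the largest fold changes against control, in opposite directions. Each sequence holds the 250 bases before the RefSeq transcription start (GRCm38.p6), read 5′ to 3′ on the gene's own strand. The Il13ra2 window is chrX:147429193-147429442 (minus strand) and the Il4ra window is chr7:125552021-125552270 (plus strand). Capitals mark matches to TATAAA, the core of the TATA box, and to TGANTCA, the site letters of AP-1.
Il13ra2: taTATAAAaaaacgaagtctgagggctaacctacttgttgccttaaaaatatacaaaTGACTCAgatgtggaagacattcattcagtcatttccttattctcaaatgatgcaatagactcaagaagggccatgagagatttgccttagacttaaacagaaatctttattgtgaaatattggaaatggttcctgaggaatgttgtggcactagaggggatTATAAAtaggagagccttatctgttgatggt
Il4ra: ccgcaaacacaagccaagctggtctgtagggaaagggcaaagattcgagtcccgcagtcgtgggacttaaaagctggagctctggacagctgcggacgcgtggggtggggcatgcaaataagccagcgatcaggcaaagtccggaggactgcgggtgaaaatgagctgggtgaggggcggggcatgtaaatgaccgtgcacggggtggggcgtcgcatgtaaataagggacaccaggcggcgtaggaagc
The Il13ra2 window had TATAAA at bases -31 to -26 and again at -248 to -243 from the start, and TGACTCA at -193 to -187. Its 250 bases were 36% G or C with 1 CpG. The Il4ra window held neither set of letters and was 59.6% G or C with 17 CpG. Over all 32851 promoter windows of this length the median was 52.4% G or C and 6 CpG. On either strand, TATAAA was present in 12.4% of them and TGANTCA in 6.75%. The letters TTCNNNNGAA, the spacing that STAT6 prefers, occurred in 5.85% of all windows and in that of Il4 among the 7 genes. The steroid receptor half-site AGAACA occurred in 16.1% of windows, among them that of Il2rg, and its inverted repeat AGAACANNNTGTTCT in 0.00913%, none of them a window of these genes. Such matches describe letters in a short window and were not tied to binding.

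Il13ra2 was abundant in the control uterus and low in every RU486-treated mouse. Control mice had 30.8, 57.0, 35.6, 43.6 and 44.2 TPM (mean 42.2 ± 9.99, SD, n = 5). IF mice had 2.38, 2.79, 2.66, 1.54 and 1.72 TPM, a mean of 2.22 ± 0.56. PBMC mice had 2.42, 2.54, 2.01, 3.85 and 1.32 TPM (2.43 ± 0.927), and PBMC-hCG mice had 2.56, 2.24, 4.24, 3.26 and 4.19 TPM (3.30 ± 0.913). The lowest control value was thus above the highest value of all 15 treated mice, whereas the 3 RU486 groups overlapped one another.

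On the log2(TPM + 0.1) scale Il13ra2 was lower than in control by 18.3-fold in the IF group (log2 fold change -4.20 ± 0.25, SE), 17.3-fold in the PBMC group (-4.11 ± 0.25) and 12.6-fold in the PBMC-hCG group (-3.65 ± 0.25). These comparisons include the values that chose the gene and the same control mice. Among the 18706 genes tested it ranked as the 3rd lowest log2 fold change in IF against control, the 2nd lowest in PBMC against control and the 10th lowest in PBMC-hCG against control. A pseudocount of 1 in place of 0.1 gave smaller sizes of -3.74 for IF and -3.67 for PBMC, and leaving out control replicate 2, the highest control value, gave -4.08, -4.00 and -3.54 for the 3 groups.

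In neither PBMC group did a difference in Il13ra2 from RU486 alone pass adjustment. The PBMC group differed from the IF group by a log2 fold change of 0.08 (95% interval -0.44 to 0.61, limma adjusted p = 0.961). PBMC-hCG was higher than IF by 0.54 (0.02 to 1.07, adjusted p = 0.131) and higher than PBMC by 0.46 (-0.07 to 0.99, adjusted p = 0.348), and neither passed adjustment. The IF libraries in these tests are also part of the contrast that chose the gene. The order of the group means, control, PBMC-hCG, PBMC and IF, therefore separates control from the rest and nothing below it beyond the spread between mice.

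**Figure D1:**
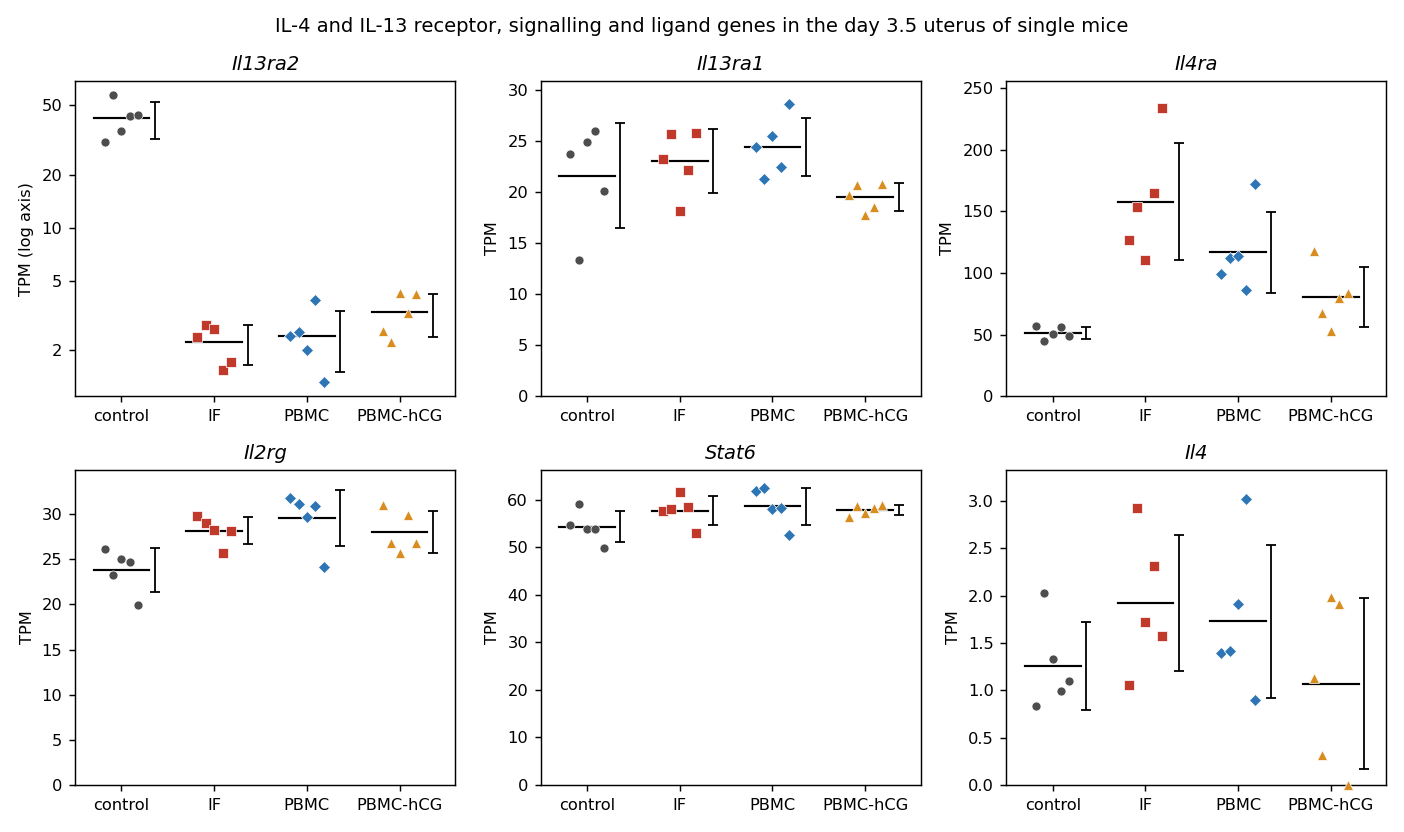
TPM of Il13ra2 (log axis), Il13ra1, Il4ra, Il2rg, Stat6 and Il4 in each of the 20 mice, by group; each point is 1 mouse, the horizontal line is the mean of 5 mice and the bar is ± SD. Il13ra2 lies between 30.8 and 57.0 TPM in control mice and at or below 4.24 TPM in all others, Il4ra is highest in the IF group, and Stat6 lies between 49.9 and 62.4 TPM throughout.

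Il13ra1, the IL-13-binding chain of the type II receptor, had group means between 19.5 and 24.4 TPM. Control mice had 23.7, 13.3, 24.9, 26.0 and 20.1 TPM, IF mice 23.3, 25.7, 18.2, 22.1 and 25.8 TPM, PBMC mice 24.4, 21.3, 25.4, 22.4 and 28.6 TPM, and PBMC-hCG mice 19.7, 20.7, 17.8, 18.5 and 20.8 TPM. The group means were 21.6 ± 5.13, 23.0 ± 3.15, 24.4 ± 2.85 and 19.5 ± 1.35 TPM in that order. Against control the log2 fold change was 0.12 in IF, 0.21 in PBMC and -0.11 in PBMC-hCG (SE 0.15 each). The highest PBMC-hCG value lay below the lowest PBMC value, a separation seen in 3.46% of all tested genes for this pair of groups, but the difference of -0.32 did not pass adjustment (interval -0.62 to -0.02, adjusted p = 0.297). PBMC-hCG against IF gave -0.23 (adjusted p = 0.265) and PBMC against IF 0.09 (adjusted p = 0.921). The low control value of 13.3 TPM came from control replicate 2, and without it the log2 fold changes against control were -0.05 in IF, 0.04 in PBMC and -0.28 in PBMC-hCG.

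Because both chains bind IL-13, the level of the decoy was set against that of the signalling chain within each mouse. Control uteri held 2.17 ± 1.22 Il13ra2 transcripts per Il13ra1 transcript (SD, n = 5, range 1.30 to 4.27), and IF uteri 0.0987 ± 0.0327 (0.0665 to 0.146). The ratio was 0.103 ± 0.047 in the PBMC group (0.0461 to 0.172) and 0.171 ± 0.053 in the PBMC-hCG group (0.108 to 0.239). The decoy transcript was thus the more abundant of the pair in each control mouse and the less abundant in each treated mouse, which follows from the Il13ra2 values that chose it. The highest control ratio was that of control replicate 2, and the other 4 lay between 1.30 and 2.20.

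Between the RU486 groups the log2 ratio was tested by exact two-sided permutation over the 252 arrangements of 5 against 5 mice, adjusted over 3 comparisons. It was higher in PBMC-hCG than in IF by 0.77 (exact p = 0.0397, adjusted p = 0.0833) and higher than in PBMC by 0.78 (exact p = 0.0556, adjusted p = 0.0833). PBMC and IF differed by -0.01 (exact p = 0.992, adjusted p = 0.992). None passed adjustment. The smallest p that 5 against 5 mice allow is 0.00794. Leaving out PBMC-hCG replicate 2 gave an adjusted p of 0.0476 in both comparisons with that group (0.92 against IF and 0.93 against PBMC). Leaving out IF replicate 3 gave the same adjusted p against IF (0.93). Over all fits with 1 mouse left out, PBMC-hCG did not pass in 8 of 10 against IF and 9 of 10 against PBMC, with adjusted p up to 0.167.

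Il4ra, the chain shared by both receptors, had its highest mean in the IF group, followed by the PBMC, PBMC-hCG and control groups. Control mice had 57.2, 44.9, 50.1, 55.9 and 49.1 TPM (51.5 ± 5.07). IF mice had 127, 154, 111, 165 and 234 TPM (158 ± 47.7), and PBMC mice had 99.5, 113, 114, 85.9 and 172 TPM (117 ± 33). PBMC-hCG mice had 118, 67.8, 52.7, 79.6 and 83.9 TPM (80.4 ± 24.3). All IF and all PBMC values lay above all control values, while the PBMC-hCG range reached into that of control.

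Il4ra was 2.98-fold higher in IF than in control (log2 fold change 1.57 ± 0.21, SE), 2.21-fold higher in PBMC (1.15 ± 0.21) and 1.51-fold higher in PBMC-hCG (0.60 ± 0.21), given as description; without control replicate 2 these were 1.53, 1.10 and 0.55. It was significantly lower in PBMC-hCG than in IF, by 1.97-fold (-0.98, interval -1.42 to -0.54, adjusted p = 0.0258), in a comparison in which 13.6% of all tested genes passed. This call was lost when any 1 of IF replicates 2, 4 and 5 or PBMC-hCG replicates 2, 3, 4 and 5 was left out, with adjusted p up to 0.0919, and the log2 fold change then ranged from -1.13 to -0.82 over all 10 such fits. PBMC against IF gave -0.43 (adjusted p = 0.742) and PBMC-hCG against PBMC -0.55 (adjusted p = 0.283). As for Il13ra2, the IF libraries in the tests against IF are also part of the contrast that chose the system.

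Il2rg, which encodes the common gamma chain of several interleukin receptors, differed little between groups. Its values ranged from 19.9 to 26.2 TPM in control mice, 25.7 to 29.8 TPM in IF mice, 24.2 to 31.8 TPM in PBMC mice and 25.7 to 31.0 TPM in PBMC-hCG mice. Against control the log2 fold changes were 0.25, 0.31 and 0.24 in the IF, PBMC and PBMC-hCG groups (SE 0.08 each), and all 3 treated groups overlapped control. Among the treated groups the differences were 0.06, -0.01 and -0.07 for PBMC against IF, PBMC-hCG against IF and PBMC-hCG against PBMC (adjusted p of 0.898, 0.951 and 0.659).

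The ratio of the shared chain to its partners followed Il4ra. There were 2.48 ± 0.53 Il4ra transcripts per Il13ra1 transcript in control mice, 6.81 ± 1.47 in IF, 4.74 ± 0.90 in PBMC and 4.11 ± 1.18 in PBMC-hCG mice. Per Il2rg transcript the values were 2.17 ± 0.21, 5.64 ± 1.79, 4.10 ± 1.75 and 2.84 ± 0.66. In all 4 groups Il4ra had the highest mean TPM of the 3 signalling chains.

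**Figure D2:**
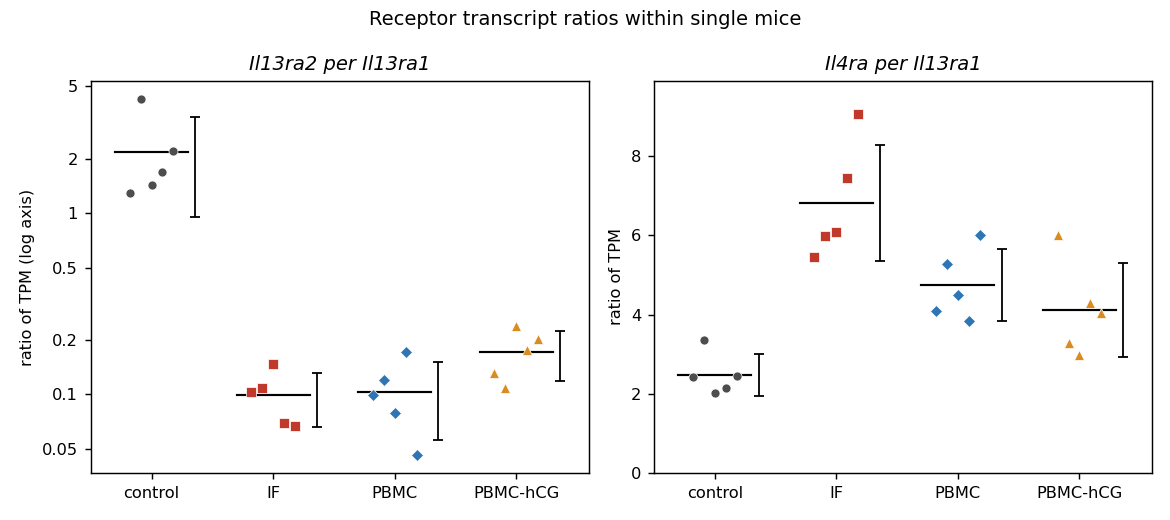
Transcript ratios within single mice, Il13ra2 per Il13ra1 on a log axis at left and Il4ra per Il13ra1 on a linear axis at right; points are mice, lines are means of 5 and bars are ± SD. The decoy to type II chain ratio is at least 1.30 in control mice and at most 0.239 in the others, and the mean Il4ra to Il13ra1 ratio is 2.48 in control and 6.81 in IF mice.

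Stat6, the transcription factor that both receptors activate, was the steadiest gene of the system. Group means were 54.3 ± 3.25, 57.8 ± 3.05, 58.6 ± 3.91 and 57.9 ± 1.06 TPM in control, IF, PBMC and PBMC-hCG mice. The log2 fold changes against control were 0.09, 0.11 and 0.10 (SE 0.05 each). Between treated groups they were 0.02, 0.01 and -0.02, with 95% intervals that lay within -0.13 and 0.13 (adjusted p of 0.954, 0.953 and 0.897). Transcript level does not report the phosphorylation by which STAT6 is activated.

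The ligands were scarce. Il13 was listed at 0 TPM in all 20 mice. Il4 had 0.837, 2.03, 1.33, 0.989 and 1.10 TPM in control mice, 1.06, 2.92, 1.73, 2.31 and 1.58 in IF mice, 1.40, 1.42, 1.91, 3.02 and 0.896 in PBMC mice, and 1.13, 0.311, 1.99, 1.91 and 0 in PBMC-hCG mice. The groups overlapped, and the 0 in PBMC-hCG replicate 5 kept Il4 out of the fit across genes. Exact two-sided permutation tests on log2(TPM + 0.1), adjusted over 3 comparisons, gave -0.17 for PBMC against IF (exact p = 0.643, adjusted p = 0.643), -1.39 for PBMC-hCG against IF (exact p = 0.167, adjusted p = 0.369) and -1.21 for PBMC-hCG against PBMC (exact p = 0.246, adjusted p = 0.369). The read depth is unknown, so a listing of 0 sets no upper limit on these cytokines.

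**Figure D3:**
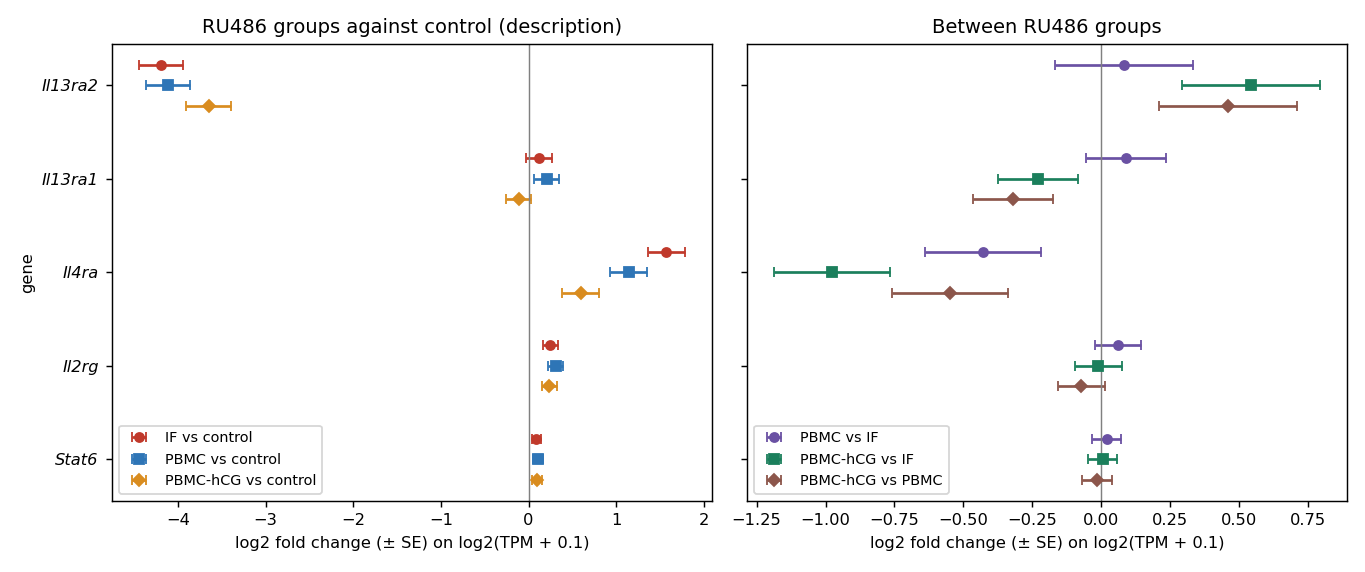
Log2 fold changes (points, ± SE) of the 5 tested genes on the log2(TPM + 0.1) scale, for the 3 RU486 groups against control at left and between RU486 groups at right, on different horizontal scales. Il13ra2 lies near -4 and Il4ra between 0.60 and 1.57 against control; between treated groups only the Il4ra value of PBMC-hCG against IF (-0.98) passed adjustment.

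Across the 5 tested genes, 2 did not overlap between the groups in IF against control (Il13ra2 lower, Il4ra higher) and the same 2 in PBMC against control, where 12.8% and 12.7% of all tested genes did not overlap. In PBMC-hCG against control it was 1 gene, Il13ra2, where 18.3% of all genes did not overlap. Of the treated groups, PBMC against IF and PBMC-hCG against IF had 0 of 5 without overlap (1.01% and 7.24% of all genes), and PBMC-hCG against PBMC had 1, Il13ra1 (3.46%). By adjusted p, 1 of the 5 genes was called in PBMC-hCG against IF, where 13.6% of all genes were called, and 0 in the other 2 comparisons of treated groups, where 0% (PBMC against IF) and 0.0107% (PBMC-hCG against PBMC) of all genes were called.

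The wider pathway was examined in 53 genes on 5 lists, of which 41 were above 0 in all mice. The lists were written with earlier results of these data known, so their counts and medians are description. By limma with adjustment over all 18706 genes, 13 were called in IF against control (10 higher, 3 lower), where 21.9% of all genes were called. PBMC against control gave 13 (11 higher, 2 lower, background 19.5%) and PBMC-hCG against control 11 (9 higher, 2 lower, background 31.8%). Between treated groups, PBMC-hCG against IF gave 6 (1 higher, 5 lower, background 13.6%). PBMC against IF and PBMC-hCG against PBMC gave 0 each, with 7 and 5 of the 41 genes at an unadjusted p under 0.05 (17.1% and 12.2%), beside 6.79% and 16.2% of all tested genes. The median log2 fold change of the 41 genes was 0.17 in IF, 0.25 in PBMC and 0.14 in PBMC-hCG against control, beside 0.02, 0.05 and 0.08 over all tested genes, and -0.04 in PBMC-hCG against IF, beside 0.05. By the study's own rule of a 2-fold change and an unadjusted p under 0.05, the counts were 5, 2 and 2 for IF, PBMC and PBMC-hCG against control (4.03%, 3.34% and 4.74% of all genes), 2 for PBMC against IF (0.438%), 3 for PBMC-hCG against IF (2.31%) and 0 for PBMC-hCG against PBMC (0.893%).

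Among the 15 receptor kinases, adaptors and feedback genes, 4 rose and 1 fell in IF against control, where 21.9% of all genes were called. Socs1, a feedback inhibitor of JAK kinases, had 11.0 ± 1.59 TPM in control, 28.0 ± 14.0 in IF, 17.5 ± 7.32 in PBMC and 13.7 ± 4.86 in PBMC-hCG mice. It rose in IF against control (log2 fold change 1.21, adjusted p = 0.00776) and fell in PBMC-hCG against IF (-0.94, adjusted p = 0.048). Socs3, another inhibitor of the family, had 45.3 ± 18.4 TPM in control and was not called in IF against control (0.80, adjusted p = 0.134). It fell in PBMC-hCG against IF from 78.0 ± 39.2 to 30.3 ± 5.26 TPM (-1.25, adjusted p = 0.0386), with every PBMC-hCG value below every IF value. Irs2, an adaptor that links the IL-4 receptors to PI3 kinase, rose in all 3 RU486 groups, most in PBMC-hCG (8.41 ± 3.99 against 18.2 ± 3.07 TPM, 1.19, adjusted p = 0.00193). Irs1, the related adaptor, fell in IF (-0.38, adjusted p = 0.0435). Shc1, an adaptor of the Ras pathway, rose in IF (0.36, adjusted p = 8.82e-07), PBMC (0.36, adjusted p = 8.01e-07) and PBMC-hCG (0.32, adjusted p = 3.23e-06), with no overlap with control. Inpp5d, which encodes the lipid phosphatase SHIP-1, also rose in all 3 groups, by 0.38, 0.40 and 0.36 (adjusted p of 0.00359, 0.0027 and 0.00399). Socs5, another suppressor of cytokine signalling, rose in PBMC against control (0.29, adjusted p = 0.0146), and Pik3r1, a regulatory subunit of PI3 kinase, in PBMC-hCG against control (0.39, adjusted p = 0.0374). Of the kinases, Jak1 and Jak2 were called in no comparison, Jak3 rose in PBMC against control (0.39, adjusted p = 0.0416) and Tyk2 in PBMC-hCG against control (0.41, adjusted p = 0.00216).

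Of the 20 response genes of IL-4 and IL-13, 12 could be tested, and 3 rose and 1 fell in IF against control (21.9% of all genes). Ccl11, the eosinophil chemoattractant eotaxin-1, rose most: control mice had 18.3, 18.3, 18.5, 19.5 and 16.0 TPM and IF mice 80.1, 102, 59.8, 105 and 90.5 TPM (log2 fold change 2.24 ± 0.21, adjusted p = 6.15e-07). PBMC mice had 61.8, 54.9, 69.2, 52.4 and 122 TPM (1.91 against control, adjusted p = 4.08e-06), and PBMC-hCG mice 69.6, 42.6, 36.2, 44.7 and 39.2 TPM (1.32, adjusted p = 0.00013). No treated value of Ccl11 fell within the control range. It was lower in PBMC-hCG than in IF (-0.92, adjusted p = 0.0264).

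Arg1, an arginase that IL-4 induces in mouse macrophages, rose from 1.12 ± 0.307 TPM in control to 2.45 ± 0.563 in IF (1.07, adjusted p = 0.00199) and remained higher than control in PBMC (0.85, adjusted p = 0.0114) and PBMC-hCG mice (0.87, adjusted p = 0.00655). Tgm2, a transglutaminase, rose in IF (0.32, adjusted p = 0.0438) and was lower in PBMC-hCG than in IF (-0.40, adjusted p = 0.0344). For Tgm2, PBMC against IF gave -0.33 (limma adjusted p = 0.667) and PBMC-hCG against PBMC -0.07 (adjusted p = 0.756). Egr2, a transcription factor induced in such macrophages, was called in PBMC against control alone (1.63, adjusted p = 0.041), with 5.12, 16.6, 24.7, 19.9 and 57.7 TPM in PBMC mice; leaving out any 1 of control replicates 1, 2 and 3 or PBMC replicates 2, 3, 4 and 5 ended the call, with adjusted p up to 0.106. Postn, the matrix protein periostin that IL-13 induces in airway cells, fell in IF (-0.58, adjusted p = 0.032), PBMC (-0.58, adjusted p = 0.0337) and PBMC-hCG (-0.87, adjusted p = 0.00169). The macrophage genes Retnla and Mrc1 and the lipoxygenase Alox15 passed in no comparison, and Retnlb was listed at 0 in all mice. The members of this list that moved thus did so in both directions.

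Il15ra, one of the receptor chains that pair with the common gamma chain and the one that presents IL-15, fell from 20.9 ± 2.97 TPM in control to 8.14 ± 2.59 in IF (-1.40 ± 0.17, adjusted p = 1.15e-05). It was higher in PBMC-hCG than in IF (12.1 ± 1.07 TPM, 0.62, adjusted p = 0.0325) and still below control (-0.78, adjusted p = 0.00195). PBMC mice had a similar level of 12.0 ± 1.79 TPM, also below control (-0.80, limma adjusted p = 0.00235). PBMC against IF gave 0.60, which did not pass adjustment (adjusted p = 0.623), and PBMC-hCG against PBMC 0.02 (adjusted p = 0.953). Il2rb, the beta chain shared by the IL-2 and IL-15 receptors, rose in all 3 RU486 groups. Against control it gave 0.44 in IF, 0.42 in PBMC and 0.57 in PBMC-hCG (limma adjusted p of 0.0315, 0.0403 and 0.00507). Crlf2, the receptor of the alarmin TSLP, rose in all 3 RU486 groups and was the only one of the 6 tested type 2 cytokine and alarmin genes called in IF against control (0.49, adjusted p = 1.37e-05); it was lower in PBMC-hCG than in IF (-0.20, adjusted p = 0.039). Of the other type 2 cytokines, Il9 was listed at 0 in all mice and Il5 in 8 of 20. Tgfb1, a cytokine that the IL-13 receptor alpha 2 protein has been described to induce, rose in IF (0.74, adjusted p = 0.00252) and PBMC (0.56, adjusted p = 0.018).

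**Figure D4:**
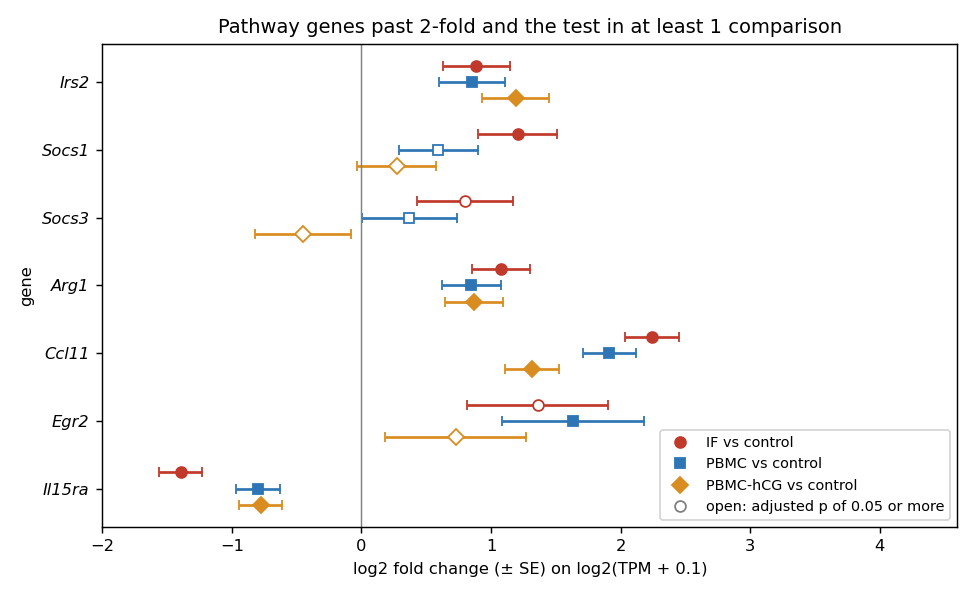
Log2 fold changes (± SE) on log2(TPM + 0.1) of the 7 pathway genes that passed adjustment with over 2-fold change in at least 1 of the 6 comparisons, for each RU486 group against control; filled symbols have an adjusted p under 0.05. Ccl11 is highest at 2.24 in IF, and Il15ra lies below 0 in all 3 groups.

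The calls of PBMC-hCG against IF in these lists depended on which mice were included. Leaving out any 1 of IF replicates 2, 4 and 5 or PBMC-hCG replicates 2, 3, 4 and 5 ended the calls of Socs1, Socs3, Ccl11 and Il15ra along with that of Il4ra, with adjusted p up to 0.158, and brought the count of pathway genes called from 6 to 0. Leaving out IF replicate 3 or PBMC-hCG replicate 1 raised it to 13 and 12. The calls over all genes moved with it, from 2544 with all mice to between 0 and 34 in those 7 fits and to 5061 and 4166 in the other 2. The rise of Irs2 lost its call in IF without control replicate 3 or IF replicate 3, and in PBMC without any 1 of control replicates 1, 3 and 5 or PBMC replicates 3 and 4, with adjusted p up to 0.0676.

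In each RU486 group the mouse with the highest Il4ra also had the highest Socs1 and Socs3, a feature chosen after the values were seen. The control group differed: replicate 1 had the highest Il4ra (57.2 TPM), and replicate 5 the highest Socs1 (12.8 TPM) and Socs3 (63.5 TPM). IF replicate 5 had 234 TPM of Il4ra, 49.6 of Socs1 and 144 of Socs3. PBMC replicate 5 had 172, 29.8 and 89.6 TPM, and PBMC-hCG replicate 1 had 118, 22.2 and 39.4 TPM. PBMC replicate 5 also had the lowest Il13ra2 of all mice (1.32 TPM) and the highest Ccl11 (122 TPM) and Egr2 (57.7 TPM).

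Markers of the cells that make or answer type 2 cytokines were read beside these results. In whole tissue, fewer cells of a type and less RNA per cell cannot be told apart. Of 7 eosinophil markers 4 were tested and none was called in any of the 6 comparisons; their summed level was 15.2 to 27.6 TPM in control, 21.9 to 30.2 in IF, 19.6 to 37.1 in PBMC and 9.50 to 42.6 in PBMC-hCG mice, and the defining granule gene Epx was listed at 0 in 16 of 20 mice. None of the 7 mast cell markers was called, with sums of 75.1 to 133 TPM in control and 61.1 to 118 in IF mice. Of 6 markers of group 2 innate lymphoid and Th2 cells, 2, 2 and 3 were higher in IF, PBMC and PBMC-hCG against control. In those comparisons 21.9%, 19.5% and 31.8% of all genes were called. Their sum was 19.8 to 21.6 TPM in control, 26.5 to 40.2 in IF, 23.8 to 34.8 in PBMC and 32.3 to 44.7 in PBMC-hCG mice. Of 6 T cell markers, 1, 1 and 2 were higher in the same 3 comparisons. Trac was among them in each (0.57, 0.99 and 0.55, limma adjusted p of 0.0354, 0.000953 and 0.0315). Of 4 B cell markers 2 were tested and none was called. Macrophage markers rose in 2 of 6 genes in IF, with sums of 999 to 1178 TPM in control and 1037 to 1203 in IF. Natural killer cell markers were higher in 3 of 5 genes in PBMC-hCG against control (31.8% of all genes called), with sums of 43.8 to 57.6 TPM in control and 65.2 to 79.6 in PBMC-hCG mice. Of 3 tested neutrophil markers 2 were higher in PBMC against control (19.5% of all genes called), among them S100a9 (2.72, adjusted p = 0.000408), with sums of 72.4 to 168 TPM in control and 136 to 260 in PBMC mice.

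Markers of the structural cells of the uterus differed between the groups as well. All 4 endothelial markers rose in each RU486 group against control (21.9%, 19.5% and 31.8% of all genes called in IF, PBMC and PBMC-hCG), with sums of 247 to 333 TPM in control, 385 to 413 in IF, 374 to 430 in PBMC and 411 to 468 in PBMC-hCG mice. The sum of 5 stromal markers was 3192 to 4336 TPM in control and 4734 to 5413 in IF, 4494 to 5676 in PBMC and 5180 to 5673 in PBMC-hCG, with 1 of the 5 genes called higher and 1 lower in IF. The median log2 fold change of the 5 genes in IF against control was -0.14, so the sum reflects the most abundant of them. Of 5 epithelial markers 4 rose and 1 fell in IF (sums of 463 to 766 TPM in control and 671 to 850 in IF). Of 5 smooth muscle markers 4 fell in PBMC-hCG against control, with sums of 5350 to 8866 TPM in control and 4305 to 5358 in PBMC-hCG mice. Of 4 tested ovary and oviduct markers 1 fell in each RU486 group, Ovgp1, which encodes an oviduct glycoprotein (-0.93, -1.69 and -1.64 in IF, PBMC and PBMC-hCG, without overlap with control). The sums of that list were 23.0 to 30.2 TPM in control, 13.2 to 27.7 in IF, 9.69 to 16.7 in PBMC and 9.20 to 19.0 in PBMC-hCG mice. Among control mice, replicate 2 had the highest epithelial sum (766 TPM). It also had the lowest stromal, endothelial and smooth muscle sums (3192, 247 and 5350 TPM). The part of all these cell markers in the Il13ra2 and Il4ra values was not tested.

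Genes were ranked by how closely they followed Il13ra2 over the 20 mice, as the root mean square difference of log2(TPM + 0.1) after each gene was centred on its own mean, among 15770 tested genes with a mean of at least 1 TPM. The nearest was Zbtb16, which encodes the zinc finger transcription factor PLZF (0.36 log2 units), with 36.2 ± 6.0 TPM in control, 2.42 ± 1.16 in IF, 2.42 ± 0.60 in PBMC and 4.12 ± 0.40 in PBMC-hCG mice. Then came Tcf23, a helix-loop-helix factor (0.66), the sulfotransferase gene Sult1d1 (0.66), Hif3a, of the hypoxia-inducible factor family (0.66), and Cd36, a fatty acid transporter (0.71). Mchr1 (0.77), Kcnd2 (0.80) and Rgs2, a regulator of G protein signalling (0.82), completed the nearest 8. Their log2 fold changes in IF against control ran from -3.95 for Zbtb16 to -2.38 for Rgs2, each smaller in size than the -4.20 of Il13ra2.

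The mirror image of Il13ra2 was approached most closely by Dio2, the deiodinase that activates thyroid hormone (0.54), which had 22.2 ± 5.4 TPM in control and 282 ± 58 in IF mice. The growth factor gene Nrg1 (0.64) and the kinase gene Plk2 (0.78) followed. Dio2, Nrg1 and Plk2 had mean levels that declined from IF through PBMC to PBMC-hCG, as Il4ra did, with 282, 217 and 150 TPM for Dio2. These genes were picked for likeness over the same mice, so their agreement in direction is a description.

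**Figure D5:**
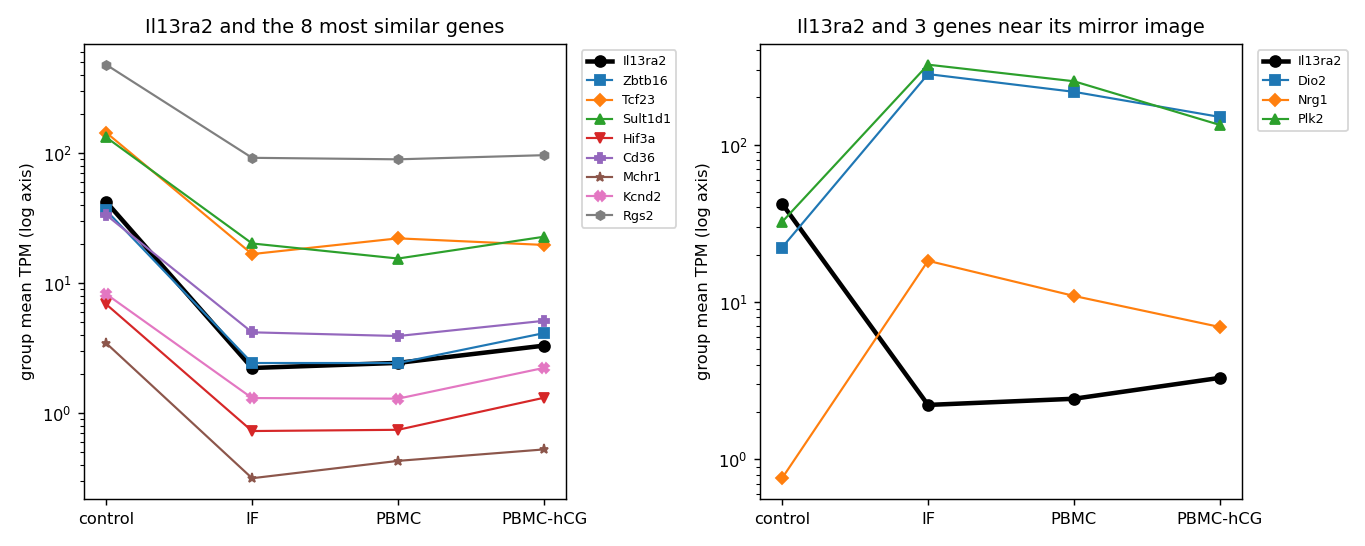
Group mean TPM (log axis, 5 mice each) of Il13ra2 in black with the 8 genes nearest to it at left and 3 genes nearest to its mirror image at right. Zbtb16 runs beside Il13ra2 in all 4 groups (36.2, 2.42, 2.42 and 4.12 TPM against 42.2, 2.22, 2.43 and 3.30 TPM), and the mirror genes are lowest in control.

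The nearest tested protein-coding genes beside each member had smaller differences than Il13ra2 and Il4ra. Lrch2, 41183 bases from Il13ra2, had a log2 difference of -0.31 between IF and control, and Amot, on its other side at 1877512 bases, had 0.07. Il21r, another cytokine receptor gene 23778 bases beyond Il4ra, had 0.26 and Nsmce1 on its other side 0.32. Next to Stat6, whose own value was 0.09, the overlapping gene Nab2 had 59.1, 104, 86.0 and 68.1 TPM in control, IF, PBMC and PBMC-hCG mice, a log2 difference of 0.83 between IF and control; how reads in the overlap were assigned is not given in the sources used here. Foxo4 and Med12 beside Il2rg were at 0.22 and 0.32, and Dock11 and Zcchc12 beside Il13ra1 at 0.09 and 0.17. Kif3a and Rad50, which flank the ligand pair, were at 0.40 and -0.23.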

How the data were processed

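Uterine RNA of 20 mice (5 per group) was measured by stranded mRNA sequencing. Per gene, the authors deposited TPM, made from reads trimmed with Trimmomatic, mapped to mm10 with HISAT2 and assembled with StringTie, per the labels and the study's methods; versions are not given in the sources used here. The totals were 999989 to 999999 per library, with 22702 to 24097 genes above 0, so the depth cannot be read from them. Counting error is therefore part of the spread between libraries and could not be modelled on its own. The study tested counts with edgeR's exact test, which TPM do not allow.

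The 18706 genes above 0 in all 20 libraries were fitted as log2(TPM + 0.1), all groups together, with limma 3.58.1 (variance trend) in R 4.3.3, with Benjamini-Hochberg adjustment of each comparison on its own. A gene was called at an adjusted p under 0.05. Folds understate changes of low genes. Ratios and Il4 were compared by exact permutation over mice with scipy 1.17.1. Positions, promoters and neighbours came from RefSeq (GRCm38.p6) by gene identifier, with a promoter found for all 7 members, and exon numbers from GENCODE.

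The members, pathway lists and marker lists were chosen with earlier results of these data known. Named genes were all 7 members, pathway genes called in at least 1 comparison (those over 2-fold with values), the 8 genes nearest to Il13ra2 and 4 nearest to its mirror image (1 of which is not reported here), and the nearest tested protein-coding gene on either side of each member. Alternatives were other pseudocounts (0.01 and 1), filters, scalings, fits of 2 groups, no variance trend, a replicate block, the study's call rule and each mouse left out.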

Additional observations from a re-analysis of the deposited data

Results flagged for a closer look

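Of the values in groups of 5 mice, Il2rg in PBMC replicate 5 stood apart from its group, at 24.2 TPM below the nearest mouse at 29.7 TPM and the highest at 31.8 TPM. Its gap to the nearest value was 0.730 of the group's range, above Dixon's 95% limit of 0.71 for 5 samples. Chance alone marks about 1 in 20 groups, and 28 groups of values were examined. The same mouse had the highest Il4ra of its group and the lowest Il13ra2 of all mice. Without it the log2 fold change of Il2rg in PBMC against IF was 0.13 (limma adjusted p = 0.424).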

How the results depend on the processing

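A pseudocount of 1 moved the Il13ra2 log2 fold change to -3.74 in IF against control and -3.67 in PBMC against control. The other 52 of 54 values of Il13ra2 under other settings were rated as unchanged. Between treated groups this meant the same direction and call. Against control, where no call was made, it meant that the Il13ra2 log2 fold change shifted by less than its residual SD. With each mouse left out it ranged from -4.30 to -4.08 (IF against control), -4.29 to -3.92 (PBMC against control), -3.76 to -3.53 (PBMC-hCG against control), -0.10 to 0.27 (PBMC against IF, below 0 without IF replicate 4 or PBMC replicate 4), 0.43 to 0.67 (PBMC-hCG against IF) and 0.27 to 0.64 (PBMC-hCG against PBMC). The log2 ratio of Il13ra2 to Il13ra1 ranged from -0.22 to 0.24, 0.64 to 0.93 and 0.53 to 0.99 in the last 3 comparisons. Its adjusted p by exact permutation ranged from 0.0476 to 0.167 in the last 2.

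The number of pathway genes called was 1 in PBMC-hCG against IF with no filter on low values, 8 in IF and 8 in PBMC against control when only those 2 groups were fitted, and by the study's rule 5, 2 and 2 (IF, PBMC and PBMC-hCG against control), 2 (PBMC against IF) and 3 (PBMC-hCG against IF). With each mouse left out it ranged from 0 to 13 in PBMC-hCG against IF, 9 to 16, 8 to 14 and 10 to 13 in IF, PBMC and PBMC-hCG against control. With no filter the calls of Socs1, Socs3 and Il15ra in PBMC-hCG against IF and of Egr2 in PBMC against control were lost (adjusted p of 0.0643 to 0.0795 apart from Il15ra at 0.0532). Egr2 was also lost under quantile normalization (0.0528), Socs1 in PBMC-hCG against IF with no variance trend (0.0556), and with only 2 groups fitted Egr2, Socs1, Il15ra and Irs2 in IF and PBMC were lost (0.0517 to 0.107).

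Signs of differences near 0 turned. Median centring gave -0.0094 and -0.0557 for Stat6 in PBMC and PBMC-hCG against IF, and -0.0096 for Arg1 and -0.0093 for Il15ra in PBMC-hCG against PBMC; quantile normalization gave 0.0072 for Stat6, -0.0376 for Arg1 and -0.0136 for Il15ra in the latter comparison. With mice left out, PBMC against IF ranged from -0.0090 to 0.0593 for Stat6, -0.170 to 0.163 for Irs2 and -0.129 to 0.738 for Egr2, PBMC-hCG against IF from -0.0468 to 0.0209 for Il2rg and -0.0241 to 0.0294 for Stat6, and PBMC-hCG against PBMC from -0.0534 to 0.0081 for Stat6, -0.138 to 0.103 for Arg1 and -0.0524 to 0.0690 for Il15ra. None of these was called, and the cause was not tested.

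Same-numbered mice of different groups had correlations of their deviations from -0.25 to 0.46, over 0.1 in 8 of 30 pairs, and 2 of 20 libraries correlated best with their own number. Number 5 had 0.40 for IF and control, 0.46 for PBMC and IF and 0.27 for PBMC and control. Whether the numbers pair the mice was not tested. A fit with the replicate number as a block called 11 pathway genes in PBMC-hCG against IF, where it called 3215 of all tested genes beside 2544 without the block. It lost Egr2 in PBMC against control (limma adjusted p = 0.0551). Its other pathway counts were within 1.5 times those without the block.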
